A study of Mus musculus with 12 samples.

Results

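Myc, the long noncoding RNA gene Pvt1 beside it and 7 genes of the MAX network were followed through H3K79me2 peak lists of mouse CD8 T cells, 9 genes of 49997 in the gene table. They are Myc, Pvt1, Max, Mxd1, Mxd4, Mxi1, Mnt, Mlx and Mga, listed by name and selected on called peaks of these same lists (their number, width and position), so those values describe the genes and support no test. A peak was assigned to a gene when at least 1 base of it lay in the gene's interval on mm10. Cultures of isolated CD8 T cells from male mice, activated with antibodies against CD3 and CD28 on day 0, received the DOT1L inhibitors SGC-0946 or EPZ-5676 (10 mM each per the labels, a doubtful unit for such compounds) or the vehicle DMSO (0.1%), renewed every other day until day 8. All mice were of the CreERT2;DOT1L-flox;OT-I strain with the genotype wt;wt;het, so neither Cre nor the floxed allele was carried and 1 OT-I T cell receptor allele was. There were 12 libraries, an H3K79me2 immunoprecipitate and an input from each of 2 biological replicates per treatment, all with yeast chromatin added as an outside standard, and the data are 3 lists of broad peaks, 1 per treatment, taken as pooled over its replicates.

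MYC is a transcription factor of growing cells and acts mainly as a dimer with MAX, which binds the DNA word CACGTG, the E-box. MXD1, MXD4, MXI1 and MNT compete with MYC for MAX and bring SIN3 and histone deacetylases to the same sites, MGA joins MAX to a Polycomb complex, and MLX is a MAX-like partner of MXD1, MXD4, MNT and the MLXIP proteins. In activated T cells MYC drives growth in size and the switch to glycolysis. H3K79me2 is placed by DOT1L on transcribed genes, mainly from just behind the start site into the gene body, and both compounds block DOT1L by taking the place of its methyl donor.

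Of these genes 4 carry an E-box in the promoter window of their start site. Those windows are shown because they let the word's place be read against each gene's called DMSO peak. The peak lay over it in Mlx, over it close to the peak's edge in Max, and short of it in Mnt and Mxd4. The lines run 5′ to 3′ along each gene from 250 bases before the start site and include the first 10 transcribed bases, with the E-box in capitals (RefSeq, GRCm38.p6, the same build as mm10).
Max (chr12:76962239-76962498, minus strand): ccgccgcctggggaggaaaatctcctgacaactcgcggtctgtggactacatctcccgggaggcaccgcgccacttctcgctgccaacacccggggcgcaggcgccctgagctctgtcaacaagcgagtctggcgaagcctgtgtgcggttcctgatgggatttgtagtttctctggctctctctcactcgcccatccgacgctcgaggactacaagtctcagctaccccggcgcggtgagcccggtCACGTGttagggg
Mlx (chr11:101087040-101087299, plus strand): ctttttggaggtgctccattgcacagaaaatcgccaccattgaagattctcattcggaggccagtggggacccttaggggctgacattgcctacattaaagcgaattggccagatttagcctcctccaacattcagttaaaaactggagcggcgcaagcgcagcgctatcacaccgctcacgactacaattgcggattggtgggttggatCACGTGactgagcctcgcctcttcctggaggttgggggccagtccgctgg
Mnt (chr11:74830674-74830933, plus strand): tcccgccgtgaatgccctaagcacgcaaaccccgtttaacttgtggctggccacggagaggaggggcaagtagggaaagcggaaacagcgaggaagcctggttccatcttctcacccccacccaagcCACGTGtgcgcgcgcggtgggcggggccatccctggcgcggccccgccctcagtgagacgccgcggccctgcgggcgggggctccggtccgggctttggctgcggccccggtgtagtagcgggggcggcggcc
Mxd4 (chr5:34187701-34187960, minus strand): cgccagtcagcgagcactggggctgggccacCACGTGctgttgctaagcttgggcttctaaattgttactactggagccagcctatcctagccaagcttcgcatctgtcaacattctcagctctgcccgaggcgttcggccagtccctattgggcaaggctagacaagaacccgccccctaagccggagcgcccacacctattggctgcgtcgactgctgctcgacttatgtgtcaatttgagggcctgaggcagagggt
The E-box begins 3 bases before the start site of Max, 40 before that of Mlx, 123 before that of Mnt and 219 before that of Mxd4. Of the 9 genes 7 had windows, 9 windows in all with 3 for Mxi1, and 4 of those 7 genes held the word CACGTG, which reads the same on both strands. Counted by window, it was found in 4 of 9 (44.4%). The word was in 7.15% of all 32851 windows of 300 bases and in 10.1% of 7842 windows of protein-coding genes with a DMSO peak. The median number of CG pairs (C followed by G) was 24 in the 9 windows, 7 over all windows and 22 in those of the marked genes. A match is a description of the letters only. The windows of Mxd1, Mga and Mxi1 did not hold it.

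In brief, no SGC peak was called in any of the 9 genes, 4 had an EPZ peak and 8 had a DMSO peak. The DMSO peak of Myc covered the whole gene and so did its EPZ peak. In Pvt1, Max and Mnt the EPZ peaks covered a small share of the gene, and Mxd1, Mxd4, Mlx and Mga had none. These shares depend on gene length. The widest EPZ peak of Pvt1, a much longer gene than Myc, measured 16.4 kb against 6.42 kb for the Myc peak. Mxi1 had no peak in any list. Between the compounds, set side by side at the same labelled dose and day as the 1 pair available, 0 SGC peaks and 8 EPZ peaks were called in the 9 genes, a difference that has no interval or test with 1 list each. Of 21900 protein-coding genes, 0.142% had an SGC peak, 15.9% an EPZ peak and 34.5% a DMSO peak, and of 12731 lncRNA genes 6.96% had a DMSO peak. Of genes with a DMSO peak, 0.410% of the protein-coding ones had an SGC peak, and 46.1% of the protein-coding and 35.2% of the lncRNA genes had an EPZ peak. When only peaks with a −log10 q of at least 5 were kept, 2 genes (Myc and Pvt1) had an EPZ peak and 4 (Myc, Pvt1, Max and Mnt) a DMSO peak.

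No list gives values per replicate, so no value below has a replicate error and no test of a difference was possible. Read depth is unknown, the lists may differ in depth, and a gene without a peak is one where none was called. The SGC, EPZ and DMSO lists held 55, 4443 and 12578 peaks. Fold enrichment is the authors' value over background, averaged over a peak, and ranks peaks within its own list only. As a check of the labelled cell type, the CD8 genes Cd8a and Cd8b1 had a DMSO peak. So did Cd3e, Trac and Lck, which mark T cells in general. Of 11 markers of CD4 T, B, myeloid and NK cells 1 had a DMSO peak, Cd79a.

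**Figure D1:**
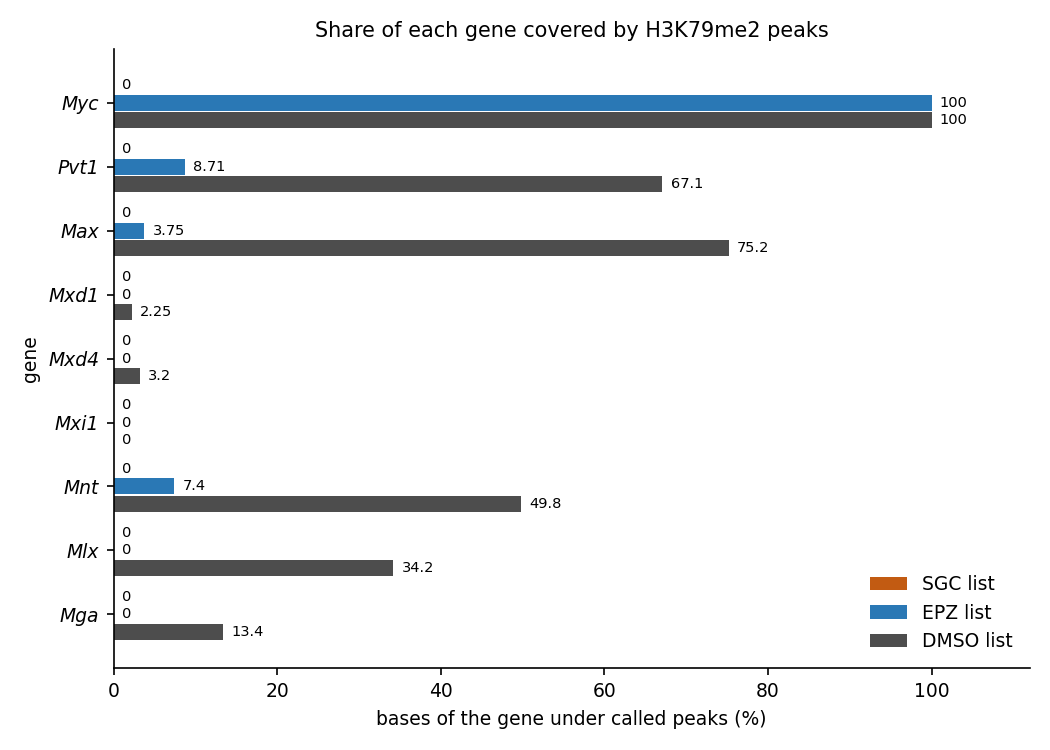
Share of each gene's bases (x axis, percent) under called SGC, EPZ and DMSO peaks, 1 pooled list per bar and no error bars. Myc is wholly covered in both the EPZ and the DMSO list, while Max has 3.75% in EPZ against 75.2% in DMSO and Mxi1 has none in any list.

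Myc, on chromosome 15 from 61985341 to 61990361, had no SGC peak, 1 EPZ peak and 1 DMSO peak. The EPZ peak ran from 61984176 to 61990596, 6.42 kb at a fold enrichment of 16.2 within the EPZ list. The DMSO peak ran from 61983789 to 61991082, 7.29 kb at a fold enrichment of 10.7 within the DMSO list. The EPZ peak lay wholly on the DMSO peak and had 88.0% of its width. Both peaks began outside the gene's lower end, by 1165 bases in EPZ and 1552 bases in DMSO, and ended past its upper end, and neither touched another annotated gene.

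Among peaks, the Myc peak ranked 61 of 4443 by fold enrichment in EPZ and 142 of 12578 in DMSO. By width it ranked lower, 740 in EPZ and 2626 in DMSO, and was still wider than the median peak of 2.10 kb in EPZ and 2.42 kb in DMSO. EPZ peaks covered 100% of the DMSO-marked bases of Myc. The ratio of EPZ to DMSO bases in a gene had a median of 34.4% (interquartile range 18.4 to 55.4) over 3486 protein-coding genes with both kinds of peak. This ratio does not require EPZ bases to lie on DMSO peaks. At Myc it cannot exceed 100%, since both peaks run past both ends of the gene, and by width of the peaks it was 88.0%. With all of the gene covered in both lists, Myc was 1 of 45 such protein-coding genes of 265 wholly covered in DMSO. The likeness to Myc in these shares could therefore not be ranked, since 44 other genes stood at the same 2 values. Of these 44, 5 had an SGC peak, Actb among them, and Actg1 was among those without.

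Peaks stronger than those of Myc had an SGC peak on them more often than peaks of the whole list, though most had none. Of the 141 DMSO peaks of higher fold enrichment 20 had an SGC peak on them, and of the 60 EPZ peaks of higher fold enrichment 27 did. Over the whole lists 42 of 12578 DMSO peaks (0.334%) and 41 of 4443 EPZ peaks had one. The SGC list held 4 peaks on chromosome 15, and the nearest to Myc, from 60184714 to 60185033, lay 1.80 Mb away in the noncoding gene Gm41331.

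**Figure D2:**
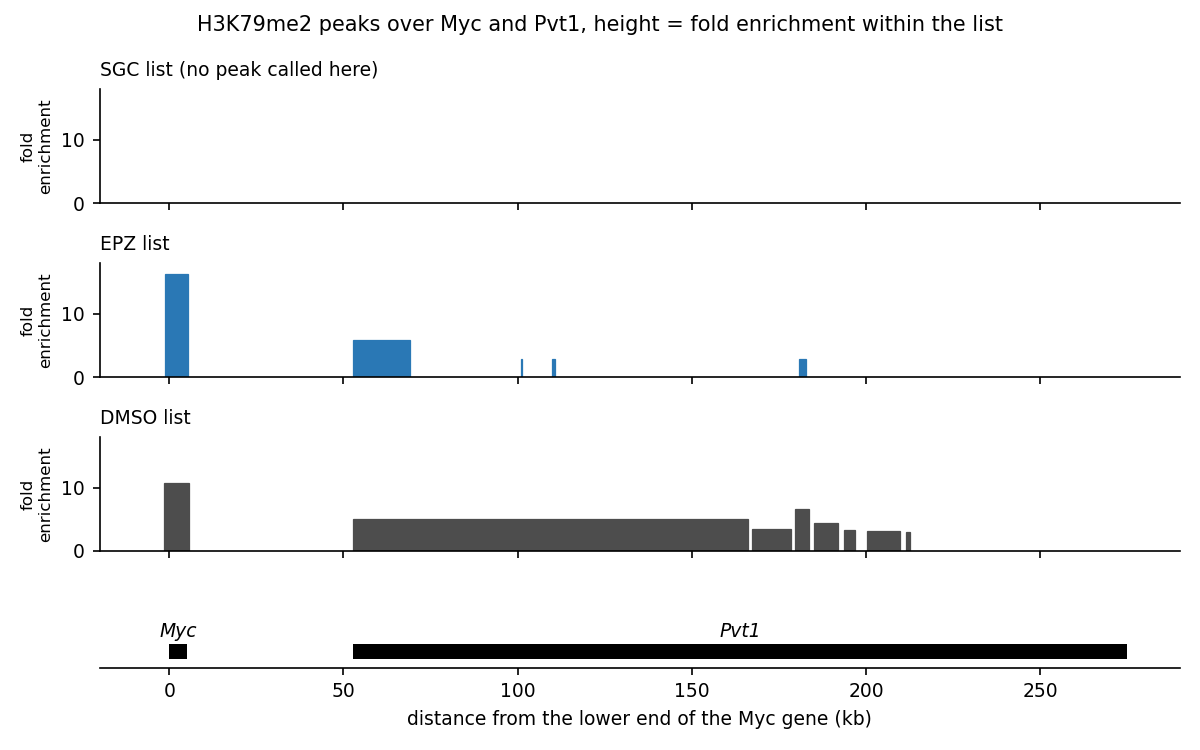
Peaks over Myc and Pvt1 in the SGC, EPZ and DMSO lists against distance from the lower end of Myc (x axis, kb), with bar width the peak's width and bar height its fold enrichment within its own list (y axis). The 7 DMSO bars of Pvt1 span 160046 bases, the EPZ bars hold 1 wide peak at its lower end and 3 short ones, and the SGC panel is empty.

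The wide chromosome 15 domain lies in Pvt1, which runs from 62037986 to 62260215, 47.6 kb above the end of Myc. Its first DMSO peak, from 62038014 to 62151401, spanned 113 kb at a fold enrichment of 5.07 and began 28 bases inside the gene. It ranked 5 of 12578 DMSO peaks by width, first on chromosome 15, and covered 51.0% of Pvt1. Another 6 DMSO peaks followed towards higher coordinates, from 1.25 kb to 11.1 kb wide at fold enrichments of 3.02 to 6.65, with gaps of 1.26 kb to 3.55 kb between neighbours. Together the 7 peaks spanned 160046 bases, of which 93.2% was under a peak.

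The marked stretch ended inside Pvt1, 62.2 kb before the gene's upper end, and the gap between it and the Myc peak held no called peak over 46.9 kb in DMSO and 47.5 kb in EPZ. In covered bases (149 kb) Pvt1 ranked first of 886 lncRNA genes with a DMSO peak and 5 of 9146 annotated genes of any kind. Beyond it the next DMSO peak lay 1763 kb away, and below Myc the next lay 573 kb away. Of 13 annotated genes within 1 Mb of Myc only Myc and Pvt1 had a peak in the DMSO or EPZ list. The others, among them Macroh2a3, a pseudogene inside the unmarked end of Pvt1, were noncoding genes or pseudogenes.

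With EPZ, Pvt1 kept 4 peaks over 19.4 kb, which is 13.0% of the bases under its DMSO peaks, and it had no SGC peak. The first EPZ peak, from 62038082 to 62054460, was 16.4 kb wide at a fold enrichment of 5.80 and ranked 163 of 4443 by width. It began 68 bases inside the wide DMSO peak. The next 2 were 0.360 kb and 0.663 kb wide at 2.91 and 2.86, and lay 48.2 kb and 57.3 kb from the gene's lower end. The last, 1.96 kb at 2.92, lay on the DMSO peak of 6.65. That peak of 3.94 kb, 127 kb from the gene's lower end, was the strongest of Pvt1 in DMSO. The first EPZ peak had a −log10 q of 12. The shorter EPZ peaks had 1.5, 1.34 and 1.88, near the EPZ list's minimum of 1.08. In EPZ bases Pvt1 ranked 3 among lncRNA genes with a DMSO peak.

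The 3 EPZ peaks on the wide DMSO peak covered 15.3% of it, the lowest share among the 6 DMSO peaks over 100 kb, whose median was 48.5% and highest 88.6%. The wide Pvt1 peak also had the lowest fold enrichment of those 6, and whether its level accounts for the share was not tested. The others lay at Bcl2, Ankrd11, Fyn, Mbnl1 and Pitpnc1, with 68.0%, 76.5%, 29.1%, 88.6% and 26.6%. Protein-coding genes were compared with Pvt1 in the share of the gene covered in DMSO (67.1% in Pvt1) and the ratio of EPZ to DMSO bases. The nearest by distance between these 2 percentages were Rbbp4 (67.0% and 13.6%), Bach1 (68.2% and 13.9%), Tex2, Mea1 and Coro1b. Rbbp4 encodes a histone-binding protein of the SIN3 complex. None of these 5 had an SGC peak.

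Max, the shared dimer partner, lies on chromosome 12 from 76937269 to 76962323 and is transcribed towards lower coordinates. It had no SGC peak, 2 EPZ peaks of 0.613 kb and 0.327 kb at fold enrichments of 3.54 and 3.59, and 2 DMSO peaks of 6.31 kb and 12.5 kb at 3.51 and 5.11. The wider DMSO peak reached 38 bases before the start site and so lay over 48 of the 260 printed bases, E-box included. That overlap rests on the place of the called edge, and how exact the edge is was not measured. Both EPZ peaks lay on it, at 367 to 693 and 4424 to 5036 bases behind the start site. The second DMSO peak lay farther into the gene and held no EPZ peak. In all, DMSO peaks covered 75.2% of Max and EPZ peaks 4.99% of those bases, below the lower quartile of 18.4% over genes with both.

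Mnt, the MAX-binding repressor on chromosome 11 from 74830806 to 74845725, had no SGC peak, 1 EPZ peak of 1.10 kb at 3.03 and 2 DMSO peaks of 5.69 kb at 5.21 and 1.74 kb at 4.52. The first DMSO peak began 481 bases behind the start site, past the printed window. The EPZ peak lay within it, 4098 to 5201 bases behind the start site, and covered 14.9% of the bases under DMSO peaks. The stronger of the 2 DMSO peaks was thus the one with an EPZ peak on it, as in Max.

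Mga, the giant MAX partner with a T-box domain, lies on chromosome 2 from 119872503 to 119970129. It had 3 DMSO peaks and no peak in the SGC or EPZ list. The DMSO peaks measured 5.42, 6.81 and 0.837 kb at fold enrichments of 3.74, 3.20 and 3.68. The first began 410 bases behind the listed start site, which itself lies 24.7 kb inside the gene's interval, and the last ended 18475 bases behind it. The rest of the gene was unmarked, so 13.4% was covered.

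Mlx, on chromosome 11 from 101086707 to 101092207, had 1 DMSO peak of 2.54 kb at 3.90 and none in the SGC or EPZ list. This peak ran from 1243 bases before the start site to 1299 behind it and covered all 260 printed bases. It also covered 573 bases of Coasy, a gene of coenzyme A synthesis that ends 0.0870 kb before Mlx, so the mark cannot be given to Mlx alone. It was the only peak of the 9 genes that touched another annotated gene.

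Mxd1 and Mxd4, antagonists of MYC that rise as cells stop dividing, carried the shortest DMSO marks of the marked genes and no SGC or EPZ peak. The Mxd1 peak (chromosome 6, gene from 86647044 to 86669234) was 0.499 kb wide at 3.24, from 395 to 893 bases behind the start site. The Mxd4 peak (chromosome 5, gene from 34176580 to 34187710) was 0.356 kb wide at 3.03, from 594 to 949 bases behind the start site. Both fell below 500 bases, and they covered 2.25% and 3.20% of their genes, against a median of 23.7% over 7563 marked protein-coding genes. Counted from the lowest, they stood in deciles 5 and 4 of DMSO fold enrichment, where 0.795% and 0.318% of peaks had an EPZ peak.

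Mxi1, on chromosome 19 from 53310128 to 53373293, was the gene without a peak in any list, at any of its 3 listed start sites. The nearest DMSO peaks lay 93.0 kb below it and 9.29 kb above it. The upper one, 9.50 kb at a fold enrichment of 6.26, belonged to Smndc1, a splicing factor gene, which also had an EPZ peak of 4.49 and no SGC peak. Mxi1 was thus unmarked beside a neighbour marked in both the EPZ and the DMSO list.

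**Figure D3:**
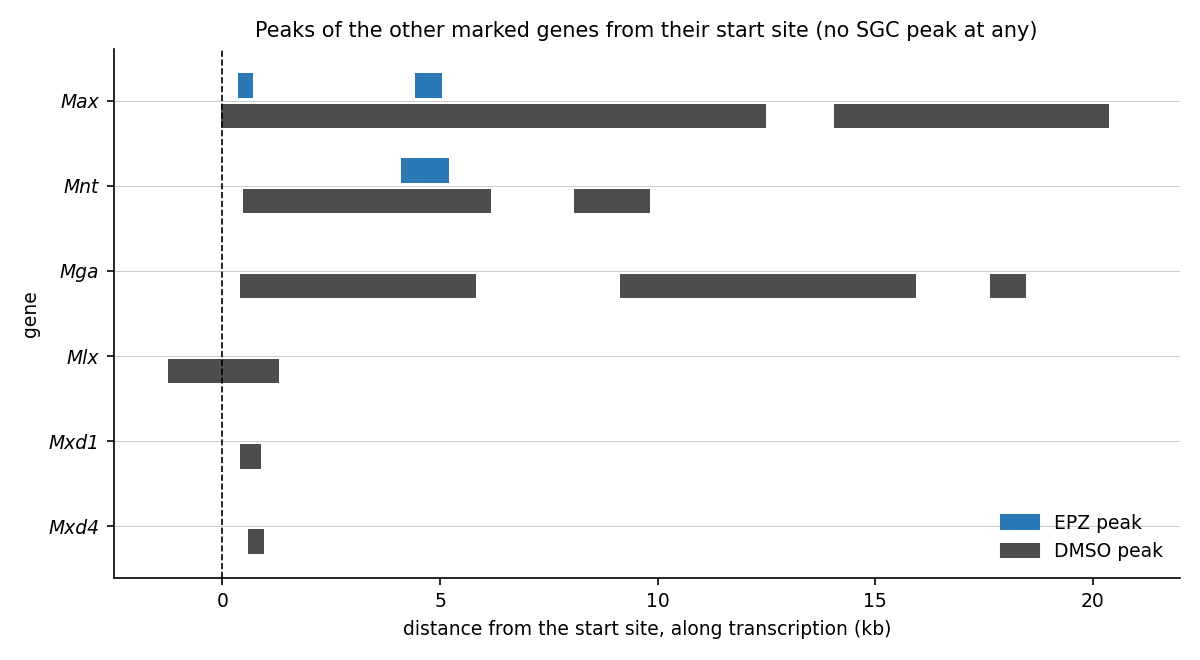
Peaks of the 6 marked genes with a listed start site, as distance from it along transcription (x axis, kb), with EPZ peaks drawn above DMSO peaks in each row. The marks lie behind the start site in Mnt, Mga, Mxd1 and Mxd4 and over it in Max and Mlx, and EPZ bars appear in the rows of Max and Mnt alone.

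Across these 6 marked genes the DMSO peak covered the start site itself in 2, Max and Mlx, and began 395 to 594 bases behind it in the other 4. Over 6149 marked protein-coding genes with a listed start site, it was covered in 39.0%. Of these 6 genes only Max and Mnt had EPZ peaks, and none of those peaks covered the start site. The share of start sites covered by EPZ peaks over all genes was not computed. For Myc and Pvt1, named without a window, distances are from the ends of the gene interval.

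**Figure D4:**
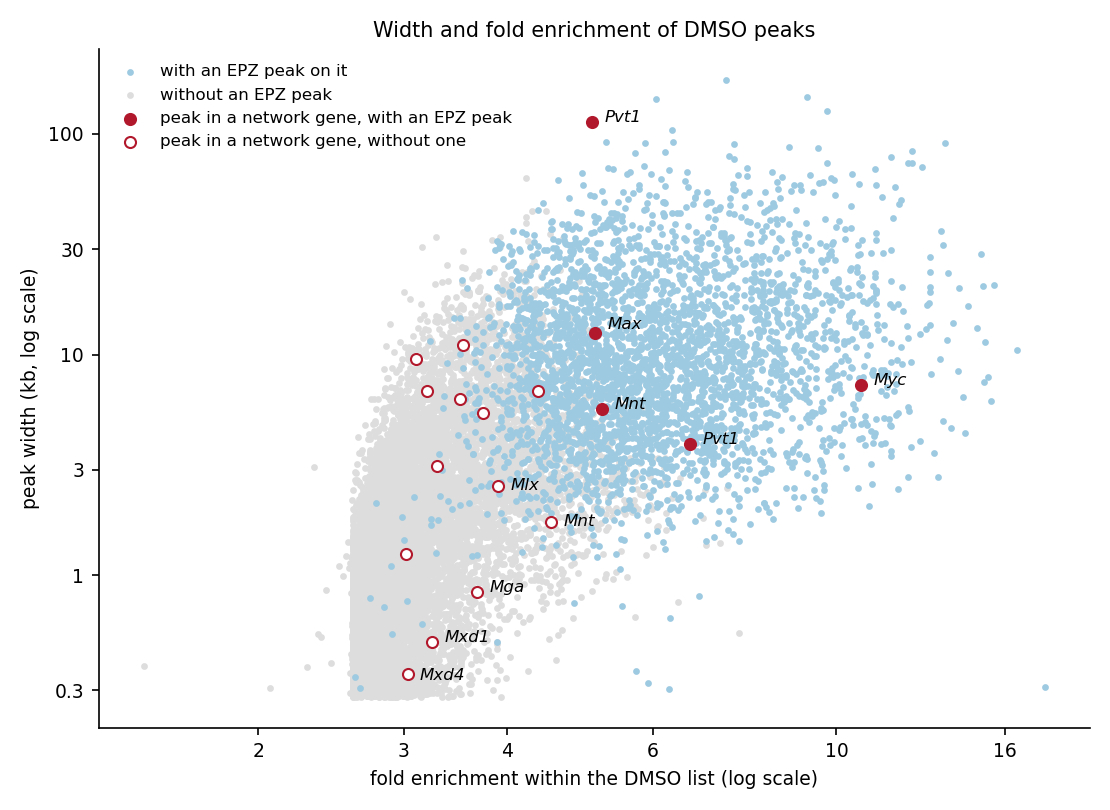
Width (y axis, kb, log scale) against fold enrichment (x axis, log scale) of all 12578 DMSO peaks, in blue with an EPZ peak on them and in grey without, and in red the 18 peaks of the 8 marked genes, filled where an EPZ peak lies on them. The 5 filled points, at Myc, Pvt1, Max and Mnt, have fold enrichments of 5.07 or more, and the open ones 4.52 or less.

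The 18 DMSO peaks of the 8 marked genes ranged from 0.356 to 113 kb (median 5.55 kb, against 2.42 kb over all DMSO peaks) and from 3.02 to 10.7 in fold enrichment (median 3.71, against 3.36). Of the 18, 5 had an EPZ peak on them, against 26.9% of all DMSO peaks. These 5 were the 5 highest of the 18 by fold enrichment. In deciles of DMSO fold enrichment, EPZ peaks lay on 99.5% of all peaks in decile 10, 91.0% in decile 9 and 56.1% in decile 8, and these held the 5. Decile 8 also held a Pvt1 peak of 4.36 and the second Mnt peak of 4.52, both without an EPZ peak. The 8 EPZ peaks ranged from 0.327 to 16.4 kb, with a median of 0.883 kb against 2.10 kb over all EPZ peaks. Over the 9 genes EPZ peaks covered 26.4 kb and DMSO peaks 196 kb, a share of 13.5%, and 4.86% without Myc and Pvt1. The ratio of total EPZ to total DMSO bases over all peaks of the 2 lists was 26.4%. Pvt1 alone held 149 kb of the DMSO bases, so the pooled share is mostly that of Pvt1.

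Partner and target genes of this network and genes flanking Myc and Pvt1 are counted by list below, with no SGC peak in any list. Over all protein-coding genes 34.5% had a DMSO peak, and of those 46.1% had an EPZ peak and 0.410% an SGC peak. At that SGC share, the absence of SGC peaks from short lists is no result about their genes. The lists are short, and differences between them or from these shares were not tested. Of 5 further genes of the same families, 3 had an EPZ and a DMSO peak. These were Mxd3, an MXD gene of dividing cells, at 4.38 in EPZ and 7.50 in DMSO, Mycn, a MYC relative, at 4.98 and 6.97, and Mlxip, a partner of MLX, at 3.85 and 5.14. The other two, Mycl and Mlxipl, had none. Fold enrichments in these sentences are for the highest peak in the gene.

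Of 25 MYC target genes 23 had an EPZ peak and 24 a DMSO peak, Tert, the telomerase gene, being the one without either. The marked targets had a median DMSO fold enrichment of 6.91, against 4.47 over all 7563 marked protein-coding genes, and ran from Ran, the nuclear transport GTPase, at 8.16 in EPZ and 11.6 in DMSO, to Cad, an enzyme of pyrimidine synthesis, with no EPZ peak and 3.54 in DMSO. In the 23 targets marked in both, the ratio of EPZ to DMSO bases had a median of 44.2%, against 34.4% over all such genes. The list was chosen with earlier results in view, and these medians describe it only.

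Of 20 genes for MYC cofactors and stability, 13 had an EPZ peak and all 20 a DMSO peak. The lowest was Ruvbl1, a helicase of chromatin complexes, with no EPZ peak and 3.35 in DMSO. Of 10 genes of the SIN3 and histone deacetylase corepressor that MXD proteins and MNT recruit, 6 had an EPZ peak and all 10 a DMSO peak, from Sap18 at 5.20 in EPZ and 7.04 in DMSO to Suds3 with no EPZ peak and 3.93 in DMSO. Of 10 genes of the MGA-containing Polycomb complex PRC1.6, 3 had an EPZ peak and 8 a DMSO peak. They ran from Cbx3, a heterochromatin protein, at 14.6 in EPZ and 9.81 in DMSO, to Ring1 with no EPZ peak and 3.18 in DMSO. The EPZ-marked share of DMSO-marked genes was 65% for cofactors, 60% for the corepressor and 37.5% for PRC1.6, against 46.1% over all protein-coding genes. Tfdp2 and Yaf2 were the 2 without a DMSO peak. Of 12 chromosome 15 genes to either side of Myc and Pvt1, 2 had an EPZ peak and 6 a DMSO peak, from Cyrib, a regulator of the actin cytoskeleton, at 4.07 in EPZ and 8.13 in DMSO, to Asap1 with no EPZ peak and 3.07 in DMSO.

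**Figure D5:**
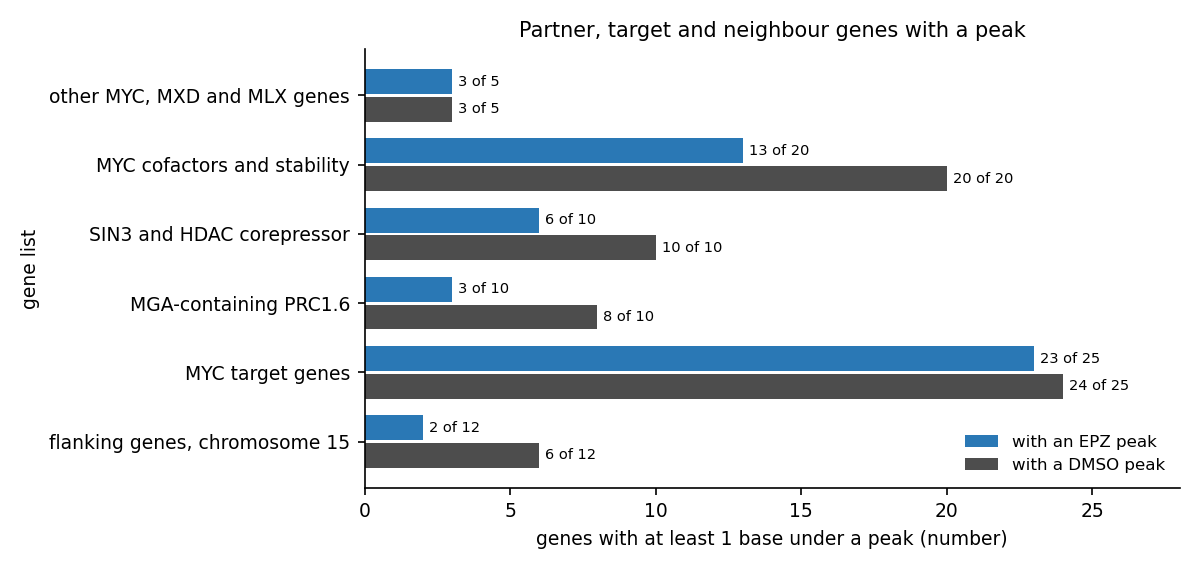
Number of genes (x axis) with an EPZ peak (upper bar) and a DMSO peak (lower bar) in 6 lists of partner, target and neighbour genes. MYC targets have 23 EPZ-marked against 24 DMSO-marked genes, and PRC1.6 genes have 3 against 8. Over all protein-coding genes with a DMSO peak, 46.1% had an EPZ peak.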

How the data were processed

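H3K79me2 ChIP-seq gave 6 immunoprecipitate and 6 input libraries, 2 biological replicates per treatment. Tools listed in the submitters' processing notes are MACS2 2.2.7.1, BWA 0.7.17-r1188 and Picard, and builds listed are sacCer3 and mm10, also called GRCm38. Pooling of replicates, the part played by inputs and yeast reads, and the cut-offs for a call were not given in the sources read for these samples. Each deposited peak has a fold enrichment, a ratio to background computed by the authors, and their −log10 p and −log10 q, and by the layout of MACS2 broad peaks these are means over its width. The deposited score column was not used.

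Peaks were overlapped with RefSeq gene intervals (GRCm38.p6), at least 1 base shared, with Python 3.11.15 and pandas 2.3.3; the overlap step was tested on simulated intervals. All 9 genes matched by symbol. Start sites and strands came from RefSeq promoter windows, the first listed window where a gene had several. Weak peaks of a shallow list go uncalled, and depth is unknown. Alternatives were 500 bases of overlap, 50% of the peak in the gene, a −log10 q of at least 5, 1 common −log10 p minimum of 3.64, intervals widened by 5 kb, 1 gene per peak and joining of peaks under 3 kb apart. The genes, lists and rules were chosen with earlier results of these data known. Named were all 9 genes, marked genes within 1 Mb of Myc, other genes under the 9 genes' peaks, the 5 genes most like Pvt1 (for Myc the rule gave a tie, from which Actb and Actg1 were picked), and the strongest, weakest and exceptional genes of each list. Macroh2a3, Smndc1, Gm41331 and the genes under other wide DMSO peaks were named after their values were seen. Motifs other than CACGTG were not searched. The strongest gene of 1 list is not reported here.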

Additional observations from a re-analysis of the deposited data

How the results depend on the processing

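Joining of peaks was applied to the Pvt1 domain alone. Of the 6 alternatives applied to the counts of genes, only intervals widened by 5 kb could add an SGC peak to the 9 genes, and none was added. The others can only remove peaks, so they could not change this count. With peaks below a −log10 q of 5 left out, there were 4 genes with a DMSO peak, 2 with an EPZ peak and, as no SGC peak was there, 2 with an EPZ but no SGC peak, since only stronger peaks were kept; over all protein-coding genes it left 5, 1682 and 3786 genes with an SGC, EPZ and DMSO peak. At least 500 bases of overlap removed Mxd1 and Mxd4 (6 genes in DMSO) and the common −log10 p minimum removed Mxd4 (7 genes). The EPZ share of DMSO bases, 13.5%, became 13.2% with 500 bases of overlap, 15.2% with a −log10 q of at least 5, 14.3% with the common minimum and 13.9% with intervals widened by 5 kb. Joining peaks under 3 kb apart widened the Pvt1 domain from 113 to 144 kb, rank 4 of 8934 joined regions. With a −log10 q of at least 5, EPZ-marked and DMSO-marked genes numbered 5 and 12 of 20 MYC cofactors, 3 and 7 of 10 corepressor genes, 2 and 3 of 10 PRC1.6 genes, 1 and 2 of 12 flanking genes and 20 and 22 of 25 MYC targets. No paired analysis was possible because each treatment has 1 list with no values per replicate, and leaving out a replicate was not run for the same reason. Depth is unknown, so how many weak peaks each list misses cannot be given.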

Other observations

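Among the 15 widest DMSO peaks the EPZ share of the peak ran from 15.3% at Pvt1 to 92.5% at Bcl11b, a T lineage transcription factor gene. The peak nearest to Pvt1 in this respect, chosen after its values were seen, lay in Cmip, with 16.3% of 92.28 kb under EPZ peaks, and the DMSO fold enrichment was 5.07 at Pvt1 and 5.27 at Cmip. Lrrc8c, a subunit gene of volume-regulated anion channels, came next in fold enrichment at 5.87 and had an EPZ share of 27.6%. Then followed Fyn at 6.06, Foxo1 at 6.21, Pitpnc1 at 6.32 and Tbl1xr1 at 6.34. Their EPZ shares were 29.1%, 41.2%, 26.6% and 51.6%. A relation between fold enrichment and EPZ share was not tested.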
